A study of Drosophila melanogaster with 3 samples.

Results

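The 8 Hox genes of Drosophila melanogaster were examined for occupancy by the protein CG2712. These are lab, pb, Dfd, Scr and Antp in the Antennapedia complex and Ubx, abd-A and Abd-B in the Bithorax complex. They were taken by symbol from Ensembl release 115 (8 of 13968 protein-coding genes), together with every peak summit from the outer end of lab to that of Antp and from the outer end of Ubx to that of Abd-B. Both complexes lie on chromosome arm 3R, the Antennapedia complex at chr3R:6661427-6999228 (337802 bp) and the Bithorax complex at chr3R:16656623-16972236 (315614 bp; build dm6). They held 61 of the 9789 summits in the IDR list, named for the irreproducible discovery rate, which compares the ranks of peaks between replicates. That was 0.623% of summits on 0.475% of the assembled bases.

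The data came from chromatin immunoprecipitation with sequencing (ChIP-seq) with an antibody against green fluorescent protein (GFP). The embryos, pooled male and female and 0 to 16 hours old, came from 1 transgenic line that carries CG2712 with GFP at its C terminus. They were collected whole, so a weak peak cannot tell occupancy in few cells from low occupancy in many. There was 1 group of 3 biological replicates, with no second genotype, treatment or time point. Each replicate list, and a list called on all 3 replicates together (the pooled list), held 30000 peaks. The IDR list was the same as the 9789 strongest pooled peaks, so the same number of strongest peaks was taken from each replicate for comparison. Signal is the authors' own value of a peak, and rank is its place in a list ordered by signal, with 1 the strongest. Read depth is unknown, so signals of different replicates were not compared, and the 95% intervals cover counting error only.

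Hox genes encode homeodomain transcription factors that give each segment of the body its identity. Within each complex the genes lie in nearly the order in which they act along the body, from lab in the head to Abd-B at the tail of the abdomen. Their expression is set by long stretches of regulatory DNA in introns and between genes, including enhancers, insulators and elements that recruit Polycomb and Trithorax group proteins. CG2712 is a predicted zinc finger protein of the C2H2 type, a fold that often contacts DNA.

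The DNA under the summits is shown for the strongest IDR peak of 7 of the 11 genes and gaps that hold one, and for the summit upstream of Dfd. The DNA just before the Antp start that carries a summit is shown beside them. The first 8 are the 101 bases centred on the summit, on the plus strand: Ama and lncRNA:CR45593 at chr3R:6763032-6763132, the interval between Scr and Antp at chr3R:6881772-6881872, an Antp intron at chr3R:6903374-6903474, an lncRNA:bxd intron at chr3R:16771747-16771847, an abd-A intron at chr3R:16811841-16811941, an lncRNA:iab8 intron at chr3R:16837933-16838033, an Abd-B intron at chr3R:16958185-16958285 and the DNA upstream of Dfd at chr3R:6791284-6791384. The last is the 100 bases before the Antp start at chr3R:6932841-6932940, on the minus strand, so that it reads toward the gene. It ends at the start and does not hold the summit itself, which lies 10 bp inside the gene at 6932830. The sequences are from RefSeq (build dm6). Capitals mark GAGAG or any of 10 A/T-only sequences of 8 bases, given with the results on sequence, on either strand.
Ama and lncRNA:CR45593: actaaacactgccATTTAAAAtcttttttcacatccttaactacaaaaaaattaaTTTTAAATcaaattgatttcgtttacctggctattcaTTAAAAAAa
Between Scr and Antp: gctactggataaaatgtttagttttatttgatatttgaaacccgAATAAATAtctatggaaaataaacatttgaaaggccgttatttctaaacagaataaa
Antp intron: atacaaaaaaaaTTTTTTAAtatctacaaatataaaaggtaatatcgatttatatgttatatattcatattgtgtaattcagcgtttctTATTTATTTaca
lncRNA:bxd intron: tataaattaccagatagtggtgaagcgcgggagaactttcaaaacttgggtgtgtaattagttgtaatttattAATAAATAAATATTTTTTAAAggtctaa
abd-A intron: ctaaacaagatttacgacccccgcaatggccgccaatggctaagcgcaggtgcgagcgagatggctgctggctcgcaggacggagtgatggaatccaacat
lncRNA:iab8 intron: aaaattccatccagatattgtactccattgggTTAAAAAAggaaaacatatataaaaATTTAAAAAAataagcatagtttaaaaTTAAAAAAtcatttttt
Abd-B intron: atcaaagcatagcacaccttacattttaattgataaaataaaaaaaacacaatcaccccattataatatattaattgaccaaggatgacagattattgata
Upstream of Dfd: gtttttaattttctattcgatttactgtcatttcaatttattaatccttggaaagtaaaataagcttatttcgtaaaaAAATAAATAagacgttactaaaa
Upstream of the Antp start: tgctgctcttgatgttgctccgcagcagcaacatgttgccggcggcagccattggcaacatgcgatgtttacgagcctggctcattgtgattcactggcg
All summit windows shown except that of abd-A were rich in A and T, with a GC content of 22.8% at Ama, 25.7% between Scr and Antp, 16.8% in the Antp intron, 27.7% in lncRNA:bxd, 18.8% in lncRNA:iab8, 25.7% in Abd-B and 20.8% upstream of Dfd. The abd-A window, from the only IDR summit of that gene, had a GC content of 57.4%. The DNA before the Antp start had 56.0%, and the 101 bases centred on its summit had 52.5%. The abd-A and Abd-B windows and the DNA before the Antp start held no capitals. In the 4 genes and gaps not shown, the strongest window had a GC content of 23.8% (lab), 36.6% (pb), 29.7% (Dfd to Scr) and 36.6% (Ubx).

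Both complexes carried summits at similar densities, and these lay mostly in introns. The Antennapedia complex held 32 IDR summits, or 9.47 per 100 kb (95% interval 6.48 to 13.4), and the Bithorax complex held 29, or 9.19 per 100 kb (6.15 to 13.2). Among the strongest peaks of replicates 1, 2 and 3 there were 37, 31 and 32 summits in the Antennapedia complex and 37, 31 and 29 in the Bithorax complex. Replicate 1 gave most in both complexes, and the intervals of the complexes overlapped over most of their length. Over both complexes there were 9.34 IDR summits per 100 kb (7.14 to 12.0) and in the rest of the genome 7.11, a ratio of 1.31. The ratio was 1.60, 1.34 and 1.32 among the strongest peaks of replicates 1, 2 and 3 (mean 1.42 ± 0.156, SD, n = 3). In the whole lists the complexes held 180 pooled summits and 194, 173 and 204 in replicates 1, 2 and 3.

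**Figure D1:**
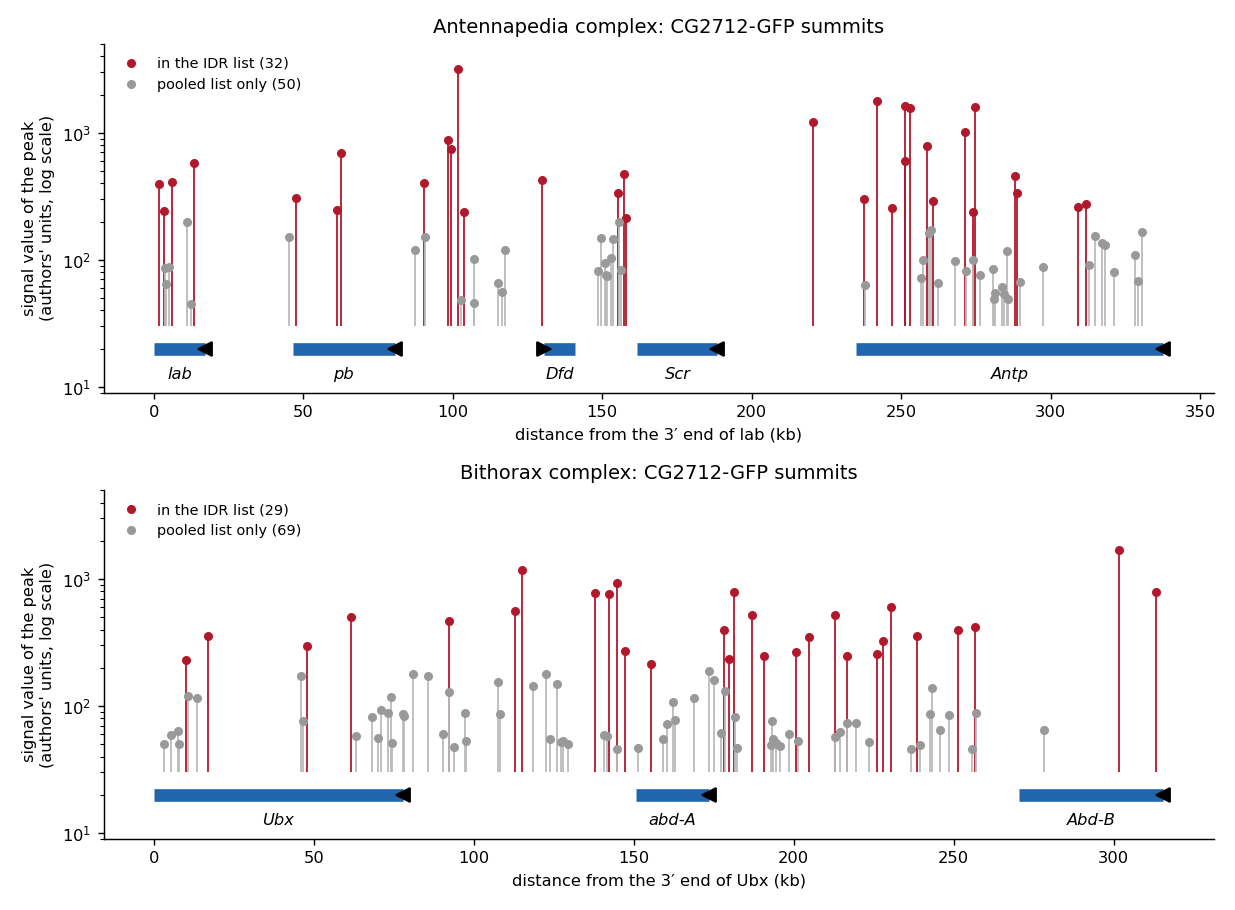
Summits along the Antennapedia complex (top) and the Bithorax complex (bottom), by distance from the outer end of the complex in kb, with the authors' signal value on a log scale. Red marks the 32 and 29 summits in the IDR list, grey the 50 and 69 further summits of the pooled list, and blue bars are the Hox genes, with a triangle at the start. In these lists the region of Scr and the DNA between Scr and Antp are almost free of summits, and so is most of Abd-B. The peaks of the single replicates are not shown.

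Few of these summits lay at gene starts. A promoter was taken as the DNA within 500 bp of any annotated transcript start. In the complexes 7 of 61 IDR summits (11.5%, exact interval 4.74 to 22.2%) lay in a promoter, against 46.4% of the 9728 summits in the rest of the genome. Promoter windows made up 10.9% of bases in the complexes and 13.3% elsewhere, so the promoter share of summits in the complexes was close to the share of bases. Among the strongest peaks, the promoter share in the complexes was 10.8%, 14.5% and 11.5% in replicates 1, 2 and 3 (mean 12.3 ± 1.98%, SD, n = 3). In the rest of the genome it was 44.8%, 45.9% and 50.1% (mean 46.9 ± 2.84%). The complexes were lower in 3 of 3 replicates, by a mean difference of -34.65 percentage points (SD 3.71, n = 3). An exact two-sided sign-flip permutation test gave p = 0.25, the smallest that 3 replicates allow (adjusted p = 0.25 over 2 such comparisons). The test therefore cannot decide, and the complexes were chosen with earlier results of these data known, so the values are a description.

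The share in introns was 73.8% in the complexes (45 of 61, 60.9 to 84.2%) and 33.7% in the rest of the genome, where introns are 60.1% and 39.0% of bases. The 45 include 15 summits in lncRNA:iab8, 3 in lncRNA:bxd and 1 in lncRNA:CR44931, which lie between Hox genes. The split between introns and intergenic DNA thus depends on the annotation of these long transcripts. Another 8 summits (13.1%) lay between genes, against 17.6% elsewhere, and 1 lay in a 3' UTR. No IDR summit of the complexes lay in a 5' UTR, a coding exon or another exon outside promoters. Counted per base of intron and intergenic DNA alone, the complexes held 53 summits, or 10.4 per 100 kb (7.77 to 13.6), and the rest of the genome 5.42, a ratio of 1.91. The ratio was 2.28, 1.90 and 2.07 in replicates 1, 2 and 3 (mean 2.09 ± 0.190, SD, n = 3). It was above 1 in 3 of 3 replicates, with an exact two-sided sign-flip permutation p of 0.25, again the smallest possible. For the same reasons that test cannot decide.

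**Figure D2:**
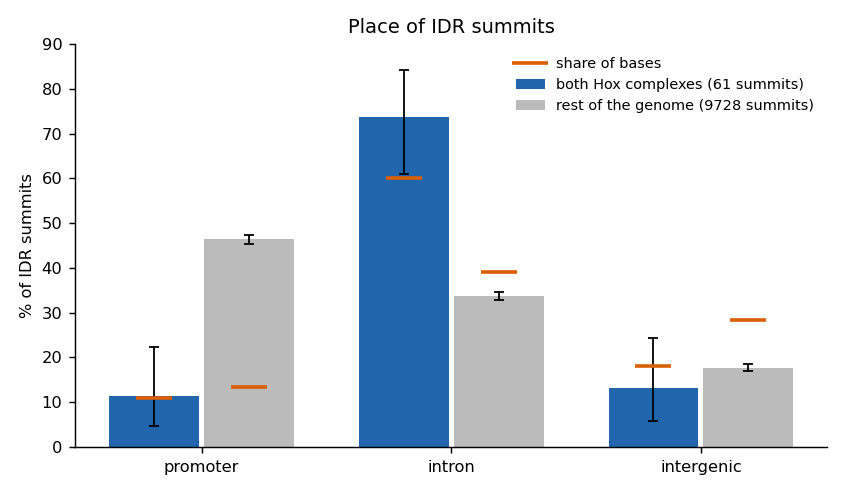
Percentage of IDR summits in promoters, introns and intergenic DNA, for both Hox complexes (blue, 61 summits) and the rest of the genome (grey, 9728 summits), with exact 95% intervals and the share of bases as orange lines. Promoters hold 11.5% of the Hox summits and 46.4% of the others, and introns hold 73.8% and 33.7%.

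Of the 8 Hox genes, lab and Antp had an IDR summit within 500 bp of a start (2 of 8, exact interval 3.19 to 65.1%), against 35.6% of all protein-coding genes. With 8 genes these shares cannot be told apart. Among the equally many strongest peaks, replicate 1 gave 3 (lab, Antp and Abd-B), replicate 2 gave 5 (lab, Dfd, Antp, abd-A and Abd-B) and replicate 3 gave 2 (lab and Antp). The shares of all protein-coding genes in those lists were 35.4%, 34.4% and 36.9%. A share over 8 genes moves far with each gene, so its spread cannot be compared with that of all genes. Among 63 homeobox genes outside the complexes the shares in those lists were 14.3%, 46.0% and 30.2%, so the spread was not particular to the Hox genes. At the Antp start used by 6 transcripts (position 6932840) the summit lay 10 bp away, with signal 1015 and rank 1497. The nearest summits of replicates 1, 2 and 3 lay 15, 3 and 21 bp from it, at ranks 1299, 2178 and 1051. Of the Hox starts this one had the strongest peak, with a rank of 2178 or better in every list. The other starts of Antp, at 6958370 and 6999228, were 8051 and 12362 bp from an IDR summit.

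At lab, the gene of the most anterior Hox domain, the IDR summit lay 313 bp from the inner start of transcript lab-RB (signal 394.9, rank 5158), and its peak was matched at ranks 5025, 5502 and 6057. The outer lab start had replicate summits 5, 11 and 75 bp away at the low ranks 22700, 15905 and 14858, while the nearest pooled summit was 3874 bp off. Dfd, which acts in the maxillary and mandibular segments, fell just outside the window. Its IDR summit lay 502 bp upstream of the start (signal 422.4, rank 4729), and the nearest replicate summits lay 305, 467 and 512 bp away. The call at Dfd therefore turned on a distance of a few bases.

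The other 5 genes had weak, variable or no peaks at their starts. Ubx, which sets the identity of the third thoracic segment, had a pooled summit 39 bp from its single start at rank 18765, with a −log10 q of 1.01. Replicates 2 and 3 had one at 40 and 2 bp (ranks 12450 and 17975), and the nearest of replicate 1 was 747 bp away. At abd-A, which acts in the abdomen, the pooled summit lay 153 bp from the outermost start (signal 187.6), and its rank of 10548 put it below the end of the IDR list. Its replicate ranks were 19804, 8922 and 9910. At the innermost start of Abd-B (16934242), replicates 1 and 2 had summits at 4 and 55 bp (ranks 8128 and 6520), but replicate 3 was 728 bp and the pooled list 693 bp away.

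Scr, which acts in the labial and the first thoracic segment, had summits at 205 bp in replicate 1 and 234 bp in replicate 3, at ranks 28064 and 28986 near the end of those lists. The nearest summit of replicate 2 was 29096 bp off. pb, which directs the adult mouthparts, had 1 start summit, in replicate 3 (286 bp, rank 28190, −log10 q 0.529). In the whole lists the number of Hox genes with a start summit was thus 4 in the pooled list, against 49.2% of protein-coding genes, and 6 in each replicate, against 49.2%, 50.7% and 51.8% in replicates 1, 2 and 3. The 6 genes differed between replicates, and lab, Antp and abd-A were found in all 3.

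**Figure D3:**
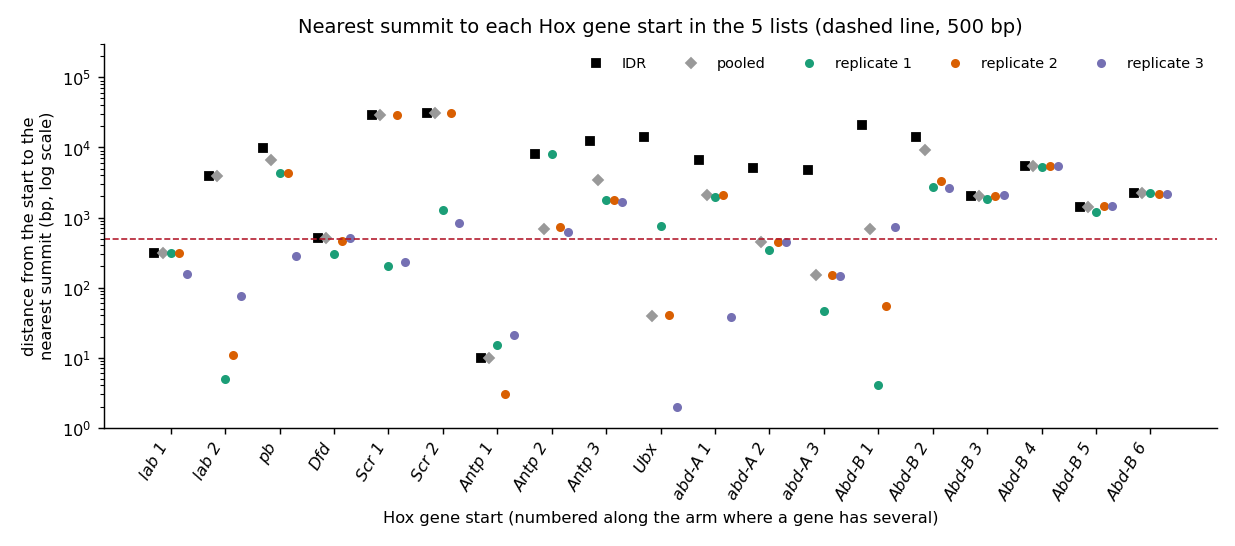
Distance in bp (log scale) from each of the 19 Hox gene starts to the nearest summit in the IDR, pooled and replicate lists, with the 500 bp window as a dashed line. At the first Antp start all 5 lists lie within 21 bp, while for most other starts the lists differ or all lie above the line.

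Within gene bodies, 6 of the 8 Hox genes held an IDR summit, against 56.5% of the 1873 protein-coding genes at least as long as Dfd, the shortest Hox gene (10593 bp). Beyond this limit the 1873 genes were not matched to the Hox genes for length. Antp, which gives the second thoracic segment its identity, held 15 in its 102976 bp (14.6 per 100 kb, 8.15 to 24.0). The strongest peaks of replicates 1, 2 and 3 put 14, 15 and 15 summits there. By number of summits in the body Antp stood 14th among the 1873 genes, and its count moved by 1 between replicates. That rank makes no allowance for length, and a long gene has more room for summits. Per 10 kb Antp held 1.457 IDR summits, and the median of the 1873 genes was 0.3646. Of the 15, 1 lay at the start, 1 in a 3' UTR and 13 in introns. The protein-coding gene CG46458 shares most of this span, so a summit there cannot be assigned to either gene.

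The strongest intronic summit of Antp, at 6903424, had signal 1768 and rank 588, and ranks of 596, 722 and 532 in replicates 1, 2 and 3. Next came 6912625 (signal 1621, rank 693), 6936322 (1605, rank 705) and 6914540 (1558, rank 741). In every replicate these 4 peaks were among the 966 strongest. They lay on both sides of the inner start, the nearest 3482 bp from it. The peak at 6912625 had another summit 209 bp on, at 6912834 (signal 599.6), in the same interval. The 3 genes of at least 20 kb most like Antp in summits per 10 kb over the IDR list and the 3 replicates were CG30460 (Euclidean distance 0.127), Imp (0.225) and grh (0.238), among 1018 genes.

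lab had the highest density of any Hox gene, with 4 IDR summits in 17164 bp (23.3 per 100 kb). The interval of 6.35 to 59.7 per 100 kb was wide, and 4, 5 and 3 of the strongest peaks of replicates 1, 2 and 3 lay there. pb held 3 intronic IDR summits, and the strongest peaks of replicates 1, 2 and 3 gave 3, 1 and 2 there. The strongest was at 6724007 with signal 695.4 and replicate ranks 2610, 2704 and 2927. The other 2, at 6709054 and 6722661, had ranks of 10869 and 10326 in replicate 2. Ubx had 4 intronic summits in 77804 bp (5.14 per 100 kb, 1.40 to 13.2), and the strongest peaks of each replicate also gave 4. The strongest Ubx summit, at 16718209, had signal 501.4. abd-A held 1, at 16811891, near the end of the IDR list (signal 214.2, rank 9430), and replicate 1 listed no peak there.

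Abd-B, the gene of the posterior abdomen and genitalia, held 2 strong IDR summits close to its outer starts. The one at 16958235 had signal 1706 and rank 631, with replicate ranks of 808, 580 and 665, and lay 2046 bp from the Abd-B-RA start. The other, at 16969983, had signal 789.9 and replicate ranks of 4176, 1882 and 2000. The strongest peaks of the replicates put 8, 4 and 4 summits in the gene, so the IDR count of 2 was below all 3 replicates. Dfd and Scr held no IDR summit and no pooled summit. In the whole replicate lists Dfd had 1, 0 and 0 and Scr 3, 0 and 2.

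**Figure D4:**
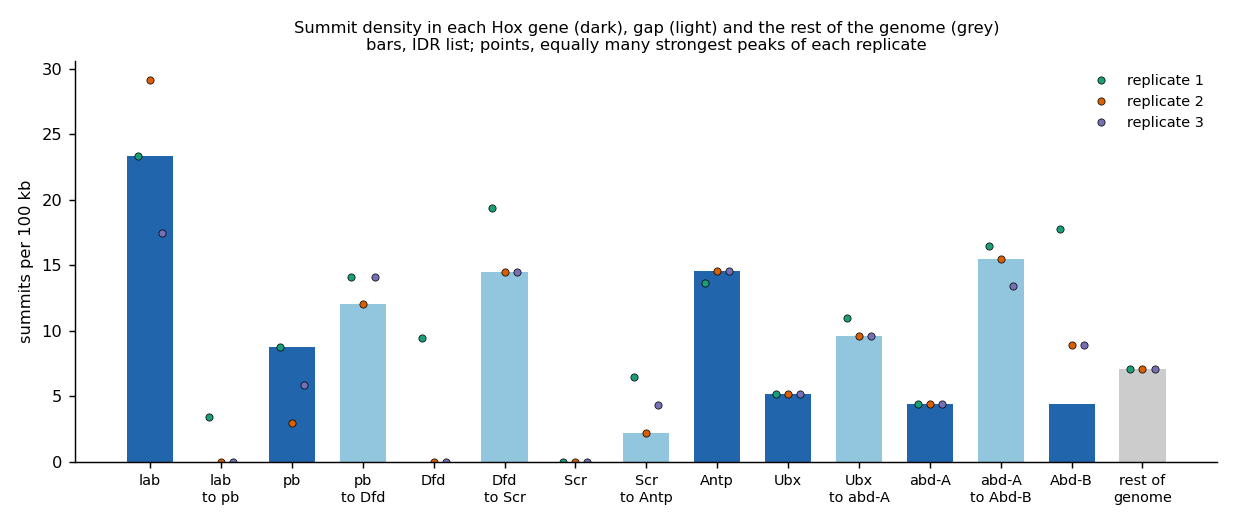
Summits per 100 kb in each Hox gene (dark bars) and each gap between neighbours (light bars), with the rest of the genome in grey; bars are the IDR list and points the equally many strongest peaks of replicates 1, 2 and 3. Antp (14.6) and the gap from abd-A to Abd-B (15.4) are high in all 3 replicates, Scr is at 0 in all, and the points for lab and Abd-B are spread.

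Of the gaps between neighbouring Hox genes, the one from abd-A to Abd-B held 15 IDR summits (15.4 per 100 kb, 8.64 to 25.5), and the replicates 16, 15 and 13. This DNA is the iab region, known for the regulatory domains that act on abd-A and Abd-B. All 15 lay within the long noncoding RNA gene lncRNA:iab8, which spans 92116 bp, and 13 of them also within the protein-coding gene MSAmiP (65179 bp), so these cannot be assigned to either gene. The strongest, at 16837983, had signal 790.4 and replicate ranks of 2721, 1725 and 2493. The others had signals from 236.4 to 599.9, so the region held many summits of middling and low strength. Of the 14 genes and gaps, this gap and Antp had an interval wholly above the 7.11 summits per 100 kb of the rest of the genome, with no adjustment for the number looked at.

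Between Ubx and abd-A lay 7 IDR summits, 3 of them in introns of lncRNA:bxd, whose DNA is known for regulatory elements of Ubx. The strongest, at 16771797, had signal 1170 and the close replicate ranks 1319, 1257 and 1204. Another lay 64 bp from the start of lncRNA:TS16 (16801235, signal 923.3). A further 2 IDR summits lay just beyond the Bithorax complex, 340 and 542 bp past the 3' end of Ubx (signals 269.6 and 300.8), and were not counted.

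In the Antennapedia complex the gap from pb to Dfd held 6 summits, and 1 of them was the strongest of all 61. It lay at 6763082 with signal 3174 and rank 175, and ranks of 186, 166 and 206 in replicates 1, 2 and 3. This summit was 322 bp from the start of Ama, which encodes a cell adhesion protein of the immunoglobulin superfamily, and 396 bp from that of lncRNA:CR45593, so it counts for both. bcd, which encodes the anterior morphogen, had a summit 196 bp from its start (signal 873.4, rank 1830), at ranks 1609, 2363 and 1644 in the replicates. lncRNA:CR44930 had a weaker one at 391 bp (signal 235.6), at ranks 13884, 9792 and 6808.

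Between Dfd and Scr were 3 summits, of which 1 lay 331 bp from the start of lncRNA:CR42651, the gene whose span holds mir-10 (signal 334.1). Another, at 6819358, had the lowest signal of all 61 (212.6, rank 9500). The gap from Scr to Antp held 1, at 6881822 in an intron of lncRNA:CR44931, with signal 1207 and replicate ranks of 1286, 1124 and 1046. The gap from lab to pb, which holds a cluster of cuticle protein genes, held none. Across both complexes 6 of 54 other annotated genes had an IDR summit at a start: Ama, bcd, lncRNA:CR45593, lncRNA:CR44930, lncRNA:CR42651 and lncRNA:TS16. Protein-coding genes were 2 of 15 in the Antennapedia complex and 0 of 3 in the Bithorax complex, against 35.6% of all protein-coding genes. Noncoding genes were 3 of 25 and 1 of 11. No share over all noncoding genes was counted, so the count of 6 cannot be called low or high. The homeobox genes zen, zen2 and ftz had none, nor did mir-10, mir-iab-4, mir-iab-8, lncRNA:bxd, lncRNA:iab4 or lncRNA:iab8.

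The longest stretches with no IDR summit were 62464 bp from 6819358 to 6881822, which holds Scr and ftz, and 44778 bp from 16913457 to 16958235, which holds most of Abd-B. The first had no pooled summit and 6, 2 and 3 in the whole lists of replicates 1, 2 and 3. Of these, 3, 1 and 1 were among the equally many strongest peaks. The other had 2 pooled summits and 12, 5 and 8 in the replicates, of which 6, 3 and 4 were among the strongest peaks. Both stretches were thus free of summits in the IDR list and not in the strongest peaks of the replicates. A list of peaks shows where a peak was called and cannot show absence of the protein.

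Hox summits were of ordinary strength in the IDR list. Their median signal was 409.5 (212.6 to 3174) and that of the rest of the genome 410.9. Of the 61, 0 were among the strongest 1% of the list, 1 among the strongest 5%, 6 (9.84%) among the strongest 10% and 17 (27.9%) among the strongest 25%. Replicates listed them about as often as other peaks: 57 of 61 (93.4%, 84.05 to 98.2%) had an overlapping peak in all 3 whole lists, against 92.65% of the rest. Among the strongest peaks the shares were 75.4% and 70.7%. The ranks of Hox peaks correlated between replicates with Spearman's rho of 0.820 (1 and 2, 58 peaks), 0.819 (1 and 3, 57 peaks) and 0.858 (2 and 3, 60 peaks). For the other peaks rho was 0.814, 0.813 and 0.847. These correlations are across peaks that were picked from the same replicates, so they describe and do not test agreement.

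**Figure D5:**
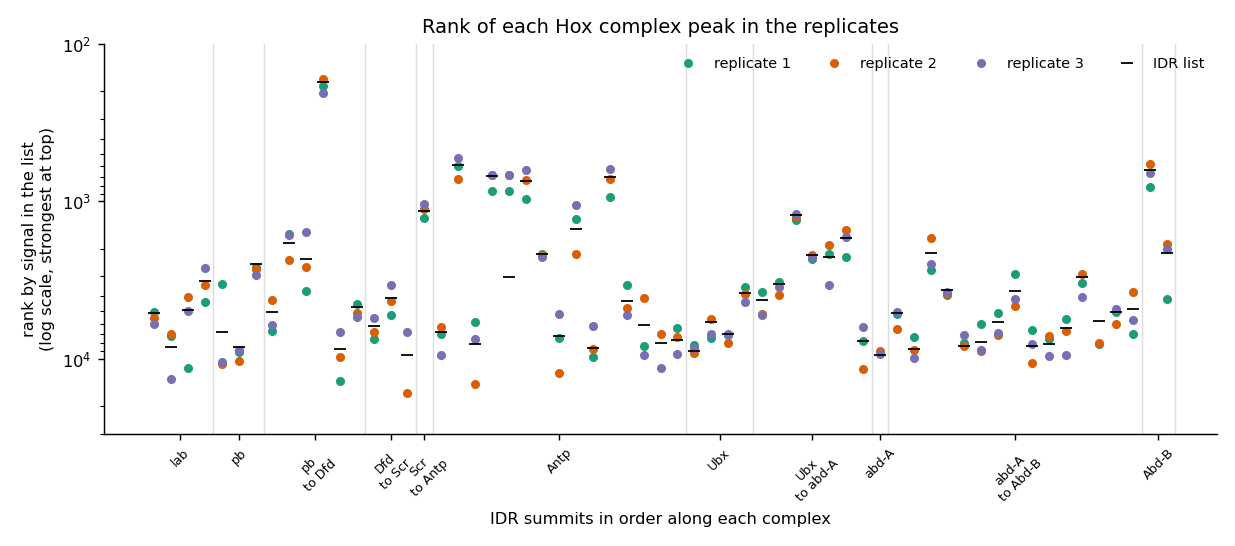
Rank of each of the 61 Hox complex peaks (log scale, strongest at the top) in replicates 1, 2 and 3 (points) and in the IDR list (dashes), in order along the complexes. The peak at Ama (rank 175) stands above all others, followed by the Antp introns (588 to 741) and Abd-B (631).

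Among 63 homeobox genes outside the complexes, 17 (27.0%, 16.6 to 39.65%) had an IDR summit at a start, beside 2 of the 8 Hox genes and 35.6% of protein-coding genes. Those with the strongest start peaks were tin (signal 2728, rank 245), a gene of heart development, NK7.1 (931.3), Dll (715.5), a gene of limb development, and ro (646.6), an eye gene. This count varied between replicates, at 9, 29 and 19 genes among the strongest peaks of replicates 1, 2 and 3. Of the Hox cofactors, exd had a summit 339 bp from a start (signal 338.8) and hth one at 24 bp (signal 297.7). hth also held 21 IDR summits in its 132008 bp body.

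The Hox summits, like the other summits, had a lower median GC content than the DNA beside them. In the 101 bases around them the median GC content was 28.7% in the complexes and 30.7% in the rest of the genome. In windows of the same length 300 bp to both sides it was 46.5% and 44.55%. The Hox windows varied widely, from 13.9% to 58.4%, and 14 of 61 (22.95%) were above 40%, a limit chosen after the values were seen, against 22.0% of the other summits. Those above 40% included the summits at the bcd start (53.5%) and the Antp start, the abd-A summit, and 4 of the 15 between abd-A and Abd-B. The 10 sequences of 8 bases, AAAAATAT, AAAATATT, AATAAATA, AAATATAT, AAAATATA, ATTTAAAA, TTTAAAAA, AAATAAAT, TTAAAAAA and ATATTTAA, were those with the largest difference in share between summits and flanks on arms 2L, 3L and X, which hold no Hox gene. Several overlap each other, and their shares at the other summits are not independent of that choice. Matched exactly on either strand, at least 1 of them was found at 28 of 61 Hox summits (45.9%) and in 11.5% of their 122 flanking windows. At the other summits the share was 37.2%, and in their flanks 14.3%. The most frequent at Hox summits was AAATAAAT, at 11 of 61 (18.0%, 9.36 to 29.98%) and in 0.820% of flanks. It was found at 7.97% of the other summits and in 13.8% of 19276 promoter windows of 300 bases. AATAAATA, which overlaps it, followed with 10 (16.4%), against 7.26% of other summits and 11.4% of promoters. Some of the 10 sequences were less frequent at Hox summits than at other summits. These were AAATATAT (4.918% against 7.165%), AAAATATA (3.279% against 6.898%), ATTTAAAA (6.557% against 7.072%) and ATATTTAA (3.279% against 6.003%). The rest of the 10 were more frequent at Hox summits.

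Sequences known for DNA-binding factors of the embryo were found at few Hox summits. Promoter windows had 300 bases and summit and flank windows 101, so a promoter had more places for a match. The shares at promoters are therefore not on the same footing as those at summits and flanks. GAGAG, bound by the GAGA factor, was found at 5 of 61 Hox summits (8.20%, 2.72 to 18.1%) and in 12.3% of flanks, against 8.88% of other summits and 33.1% of promoters. GCCAT, the core sequence of Pleiohomeotic, was found at 9 (14.75%) and in 22.1% of flanks, against 13.0% of other summits and 41.0% of promoters. TAATTA, a homeodomain core, was found at 5 (8.20%) and in 5.74% of flanks, against 11.3% of other summits and 18.85% of promoters. For TAATTA the share at the summits was slightly above that beside them, by a difference within its counting interval. In the flanks of the other summits GAGAG was found in 14.7%, GCCAT in 18.3% and TAATTA in 5.42%. The directions between summits and flanks were thus the same at the other summits for these sequences. CACGTG, the E-box, was found at 2 Hox summits (3.28%) and in 1.64% of flanks, against 0.668% of other summits and 4.01% of promoters. CAGGTAG, the sequence of Zelda, was found at 1 (1.64%) and in 0.820% of flanks, against 0.339% of other summits and 1.69% of promoters. In the flanks of the other summits CACGTG was found in 1.34% and CAGGTAG in 0.612%. The direction there was the reverse, but the Hox shares rest on 2 summits and 1 summit. TATCGATA, the sequence of DREF, was found at 0, against 2.59% of other summits and 7.98% of promoters. GGTCACACT, the sequence of M1BP, was also found at 0, against 1.23% of other summits and 5.22% of promoters. Flanks of the other summits held TATCGATA in 0.447% and GGTCACACT in 0.293%. An exact match to the consensus of the insulator protein CTCF was found in no window or promoter. A search without any match cannot tell whether the Hox summits hold CTCF sites. A match is a description of the letters and not evidence of binding.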

How the data were processed

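Peak lists of 3 biological replicates of 1 group were used, with the pooled and the IDR lists. Per the text deposited with the lists, the authors called peaks on each replicate's alignments, or on all 3 together, against 1 control file, on build dm6. For the peak caller, aligner, settings and IDR threshold, nothing is given in the sources used here. The lists are narrowPeak tables: the deposited signal value of each peak is the authors' own, its scaling by depth is not stated, and the deposited q values are on the −log10 scale. All IDR peaks had the same −log10 q (4.34), so peaks were ranked by signal. The deposited summit offset, an other measure in bases, was added to the start.

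Genes were those of Ensembl release 115, and all 8 Hox genes had the same coordinates in RefSeq, from which sequences were read. Each summit was classed by the first that applied: promoter (within 500 bp of a start), UTR (5' before 3'), coding exon, noncoding exon, intron, intergenic DNA. Peaks matched where they overlapped by at least 1 bp. Intervals are exact Poisson for counts and Clopper-Pearson for shares. Sequences were matched in the 101 bases around a summit. Named were all Hox genes with their IDR summits, the strongest pooled summits outside that list, other genes of the complexes with a start summit, 4 homeobox genes and the 3 genes most like Antp. Members, lists and sequences were chosen with earlier results of these data known. Leaving out replicates, other lists, windows and overlap rules were the alternatives, and those on promoter share, intronic and intergenic density and 8-base sequences were added after the data were seen. Simulated data with planted answers were used to test start windows, counts in a region and matches to GAGAG, and no other step. SciPy 1.17.1, pandas 2.3.3, NumPy 2.4.6 and matplotlib 3.10.9 were run under Python 3.11.15.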

Additional observations from a re-analysis of the deposited data

How the results depend on the processing

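Of 97 alternatives for 11 results, 62 stayed within the limits set and 35 moved, and the cause of the moves was not tested. The limit was a fixed fold change for gene and summit counts, and a counting interval or the replicate SD for other values. Lists with many fewer or more peaks change counts and median signal by construction, and 1 peak per interval changes little. The tally is therefore no measure of how robust the results are. The whole pooled list gave 82 summits in the Antennapedia complex and 98 in the Bithorax complex, 4 Hox and 34 homeobox genes with a start summit, a median signal of 116.5 and an intronic and intergenic density ratio of 1.41. IDR peaks with signal above the median gave 16 and 14 summits, 1 Hox and 6 homeobox genes, and a median signal of 767.0. The strongest peaks of replicate 1 gave a density ratio of 1.60 (2.28 in introns and intergenic DNA) and 9 homeobox genes, and those of replicate 2 gave 5 Hox genes (against 34.4% of protein-coding genes), 29 homeobox genes and a promoter share of 14.5%. IDR peaks among the strongest of all 3 replicates gave 9 homeobox genes. When only the strongest peaks of each replicate counted as support, 75.4% of all Hox IDR summits had it in all 3 replicates. Introns and intergenic DNA alone gave a density ratio of 1.91. A start window of 250 bp left 1 Hox gene and a promoter share of 4.92%, and one of 1000 bp gave 16.4%. Beside these windows no share over all genes or all summits was counted. The same holds for the stronger IDR peaks, those among the strongest of all 3 replicates and the lists without a replicate. Whether these changes in gene counts and promoter shares are particular to the Hox genes was therefore not tested. Sequence windows of 25 and 100 bp either side gave GAGAG shares of 1.64% and 22.95% and 8-base shares of 21.3% and 72.1%. Without each replicate in turn, the density ratio ran from 1.27 to 1.59, that in introns and intergenic DNA from 1.91 to 2.41, and the promoter share from 10.7% to 14.3%. The homeobox count ran from 9, without replicate 2 or replicate 3, to 17, and replicate support from 93.4% to 98.4%. Alternatives were labelled only as staying within the limits or moving, so a change of direction was not labelled. Both density ratios stayed above 1 in every alternative. The share of Hox genes with a start summit was below that of all protein-coding genes in the IDR list. Among the strongest peaks of replicates 1 and 2 it was above, at 37.5% against 35.4% and 62.5% against 34.4%. With 8 genes these directions cannot be told apart. No paired analysis was possible because there is 1 group, so no samples of different groups could be paired. The complexes and the rest of the genome were compared within each replicate. Depth per replicate is unknown, which limits any statement about weak peaks.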

Other observations

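Some Hox peaks were among the 9789 strongest of a pair of replicates and yet had no overlapping peak in the pooled list. Of the Hox peaks shared by replicates 1 and 2 this held for 3 of 56, against 0.877% of 7636 in the rest of the genome, and for replicates 1 and 3 it held for 4 of 56, against 1.14% of 7386. For replicates 2 and 3 it held for 0 of 49, against 1.49% of 8060. Of these 7 Hox peaks 4 lay in Abd-B, at 16934238, 16941531, 16947609 and 16948937. The one at 16934238, 4 bp from an Abd-B start, had ranks of 8128 and 6520 in replicates 1 and 2 and no peak in replicate 3. The others lay between pb and Dfd (6746420 and 6780244) and between Scr and Antp (6869482). All 7 involved replicate 1, whose part in this was not tested.

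Of pooled summits outside the IDR list, the strongest in lab lay at 6672563 (signal 200.0, rank 10039), and the strongest between Dfd and Scr at 6816942 (signal 199.9, rank 10042), close below the end of that list. In Antp the strongest lay at 6921431 (signal 171.3), in Ubx at 16702487 (signal 172.6) and in abd-A at 16825590 (signal 116.0). Abd-B had 1 such summit, at 16934935 (signal 64.69). In the other gaps the strongest lay at 6706527 between lab and pb (signal 150.8), at 6752092 between pb and Dfd (signal 152.3) and at 16737542 between Ubx and abd-A (signal 179.7). Between abd-A and Abd-B it was the summit at 16830202, near the abd-A start.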
